A study of Mus musculus with 6 samples.

Results

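Intraflagellar transport (IFT) and BBSome genes were described in testis RNA of mice, across libraries labelled DKO and libraries labelled WT. The members were every gene whose symbol in the files begins with Ift or Bbs followed by a digit, together with Wdr19, Wdr35, Ttc21b, Traf3ip1, Cluap1, Bbip1, Mkks, Ttc8, Arl6, Lztfl1, Dync2h1 and Dync2li1. This gave 34 of the 24411 genes in the files, and all 34 passed the filter on low counts. They comprised 7 genes of the IFT-B1 subcomplex, 6 of IFT-B2, 6 of IFT-A, 8 BBSome subunits, 3 chaperonin-like BBS genes, 2 BBSome regulators and 2 subunits of cytoplasmic dynein-2.

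The study sequenced RNA from whole frozen testes of age-matched C57BL/6 males, 3 with the genotype label MRP5-/- and MRP9-/- (labelled DKO, double knockout) and 3 labelled Wildtype (labelled WT). C57BL/6 is an inbred laboratory strain. MRP5 and MRP9 are ABCC-family membrane transporters encoded by Abcc5 and Abcc12, and the question of the comparison is what changes in the testis when both are missing. The labels give neither the age nor the design of the alleles, and 1 library stands for 1 mouse.

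Cilia and sperm flagella are built by trains of IFT proteins that run along the axonemal microtubules. Kinesin-2 carries the trains to the tip, with IFT-B as their main scaffold, and dynein-2 returns them with IFT-A. The BBSome is a coat-like adaptor that rides on the trains and moves membrane proteins in and out of the cilium. In the testis the pathway is needed in spermatids, where the flagellum grows. Mice that lack Ift20, Ift27, Ift88, Ift140 or Ift172 in germ cells make malformed or short flagella, and mice without Bbs2, Bbs4 or Mkks fail to form them.

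Transcription of many ciliary genes is driven by RFX factors, which bind an inverted repeat called the X-box. Promoters (250 bases before to 50 after a start site, RefSeq, GRCm38.p6) were found for 30 of the 34 members. None was found for Dync2li1, Ift122, Ift80 and Ift81. The X-box was searched as GT, CC, GG and AC in that order with 2 unspecified bases between each and the next, which reads the same on both strands, and its half-site as GTTGCC on either strand, so that 1 stretch can match both. An X-box stood in 6 of 30 member promoters (20%) and in 2.0% of 17224 promoters of genes in the files. A half-site stood in 12 of 30 (40.0%) against 12.4%, and at least 1 of both in 15 of 30 (50%) against 13.4%. A match is a run of letters, not a shown binding site, and the member promoters were also richer in CpG (median 21.5 CpG dinucleotides against 13). TATAAA, on either strand, stood in 1 of 30 (3.3%) against 12.8%. The X-box matches are shown in capitals with their flanks, 5′ to 3′ on the strand of the gene, because they are a sequence feature that the choice of members did not use:
Bbs1 (chr19:4906605-4906634, minus strand): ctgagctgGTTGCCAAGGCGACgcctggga
Bbs4 (chr9:59353464-59353493, minus strand): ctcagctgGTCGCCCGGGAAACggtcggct
Bbs7 (chr3:36613489-36613518, minus strand): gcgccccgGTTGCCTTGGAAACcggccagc
Ift22, distal (chr5:136908079-136908108, plus strand): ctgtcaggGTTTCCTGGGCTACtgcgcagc
Ift22, proximal (chr5:136908109-136908138, plus strand): tgttcccgGTCGCCGTGGAAACtgaccagc
Ift57 (chr16:49699199-49699228, plus strand): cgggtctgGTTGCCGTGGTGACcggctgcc
Wdr19 (chr5:65199654-65199683, plus strand): tttgcacgGTCTCCTGGGTGACgagaacgc

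The match began 121 bases before the start site in the Bbs7 promoter (-121) and 87 before it in that of Ift57 (-87). Ift22 held a pair of matches, at -63 and -33, and Wdr19 had its match at -34. In Bbs1 and Bbs4 the match lay just after the start site, at 1 and 23 bases. Between the genotype labels edgeR called 0 of the 6 genes with an X-box, 2 of the 15 with an X-box or a half-site (Bbs5 and Lztfl1), 1 of the 15 with neither (Ift20) and 2 of the 4 without a promoter in the table, against 10.8% of all tested genes. The median level of these classes was 29.7, 49.5, 34.5 and 62.8 TPM, a unit scaled for transcript length and library size. No difference between these classes was tested.

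Libraries held 26753721 to 31745969 expected counts in the group labelled WT and 42673615 to 67131103 in that labelled DKO, so depth did not overlap. Mean fragment lengths were 317.4, 288.8 and 275.5 bases (labelled DKO, replicates 1 to 3) and 257.9, 230.4 and 245.7 bases (labelled WT), again with a gap between the groups (two-sided exact permutation p = 0.1, which is the minimum for 3 against 3). Fragment length and genotype label therefore cannot be told apart. Abcc12 was lower in libraries labelled DKO (82.1, 82.4 and 72.6 against 165, 158 and 159 CPM, counts scaled to library size). Abcc5 was not lower but higher: it had 17.0, 16.7 and 16.8 CPM against 10.5, 12.3 and 11.4 CPM. Counts per gene cannot show whether a transcript still codes for a working protein, so these values speak neither for nor against the label. The genotype was not tested here, and the text speaks of libraries labelled DKO and WT throughout. Testis markers were abundant, with the 10 elongating spermatid markers summing to 109843 to 126190 TPM. Of 5 markers for adjoining ducts, Lcn5 and Lcn8 had no count in any library, which allows up to 0.0447 to 0.112 CPM by counting error alone, while Pax2 had 1.02 to 1.69 TPM. Of 4 for multiciliated epithelium, Mcidas was at most 0.08 TPM and Gmnc at most 0.18 TPM, Ccno had 2.11 to 3.09 TPM and Foxj1 67.7 to 88.8 TPM. Foxj1 is also one of the ciliary transcription factors listed below, so its level cannot be assigned to that epithelium.

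Every member was expressed in every library, with 125 to 46225 counts per gene and library. Together they took 0.371% to 0.387% of the counts of a library. The level spanned 73.4-fold in mean TPM over the 6 libraries, from 3.51 for Mkks to 257 for Ift43, and 32 of the 34 lay above the median of all tested genes. The median was 63.5 TPM over the 19 IFT genes and 18.0 TPM over the 13 BBS genes, regulators included, against 8.51 TPM over all tested genes. Within 1 complex the levels were far from equal: in IFT-A, Ift43 stood at 257 TPM, Ift140 at 175 TPM and Wdr19 at 19.6 TPM.

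**Figure D1:**
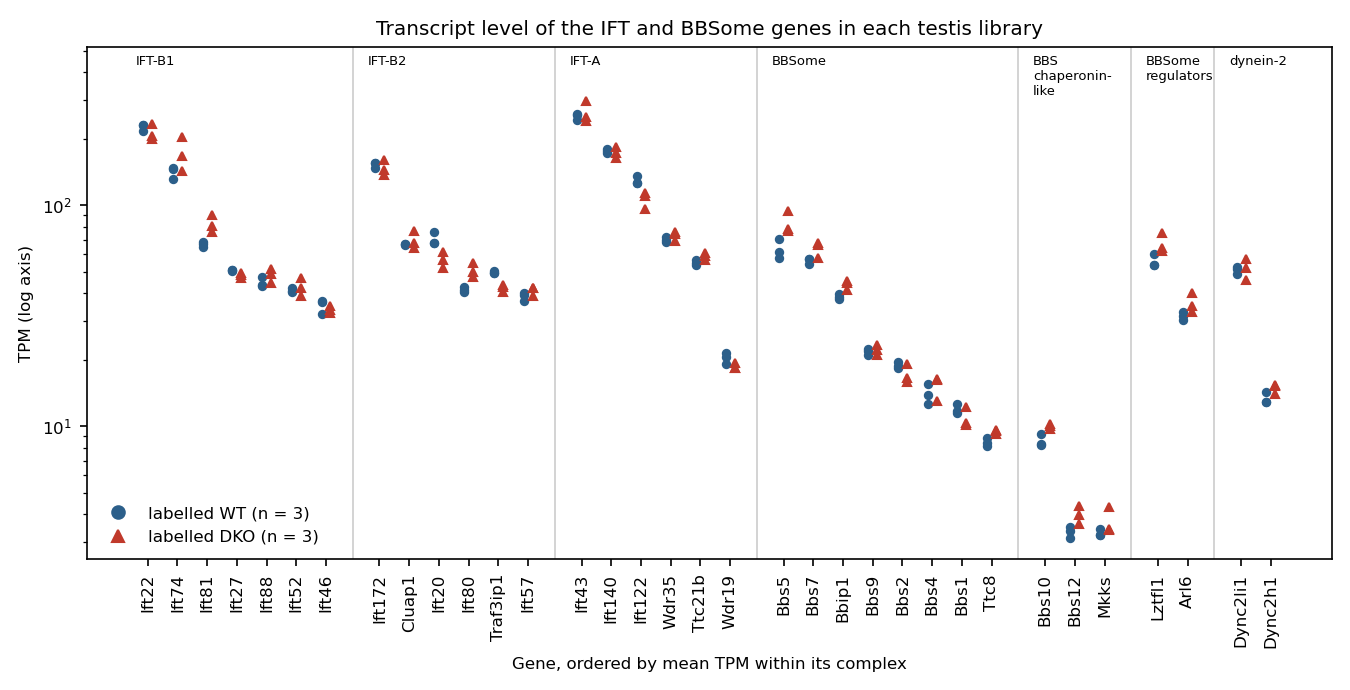
TPM (log axis) of each gene in each library, ordered by mean TPM within its complex; circles are libraries labelled WT and triangles libraries labelled DKO (n = 3 each). Ift43 and Ift22 stand highest at 257 and 219.6 TPM, and the chaperonin-like genes Mkks and Bbs12 lowest at 3.51 and 3.66 TPM, while the gap between the groups is small beside the gaps between genes.

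Between the genotype labels 5 of the 34 genes passed an adjusted p of 0.05 (edgeR quasi-likelihood test, Benjamini-Hochberg over 17110 genes), with Ift81, Ift80, Bbs5 and Lztfl1 higher and Ift20 lower in libraries labelled DKO. That is a share close to the background, since 10.8% of all tested genes were called (5.75% higher, 5.1% lower). All 5 differences were 1.26-fold to 1.33-fold. The log2 fold change was above 0 for 25 of 34 members and for 49.3% of all tested genes, with medians of 0.13 and -0.0042. The CPM of the groups did not overlap for 19 members (15 higher, 4 lower), against 35.9% of all tested genes (18.4% higher, 17.5% lower). This depended on the unit. Of the 19, Mkks, Arl6, Wdr35, Ift57, Dync2h1 and Wdr19 overlapped in TPM, while Ift27 overlapped in CPM but not in TPM. The share of all tested genes without overlap was not counted in TPM. Unadjusted, 16 of the 34 had a p under 0.05, against 31.7% of all tested genes. None of the 34 reached an adjusted p under 0.01 in edgeR, which 7 of all tested genes did.

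The calls depended on which libraries were fitted. Leaving out DKO replicate 1, DKO replicate 2, WT replicate 2 or WT replicate 3 left 0 members called by edgeR. Unadjusted, 12, 13, 8 and 13 of the members had a p under 0.05 in these fits. Among all tested genes these counts were 3571 of 17097, 4783 of 17116, 3793 of 17403 and 4326 of 17431. All tested genes lost their calls in the same fits, down to 0.0643%, 3.83%, 0.0747% and 0.0402%. Without DKO replicate 3 there were 6 members (17.7% of all tested genes), Ift74 being added, and without WT replicate 1 there were 5 (11.7%), Dync2h1 taking the place of Lztfl1. The 5 called genes kept their direction in all 6 of these fits. By method, DESeq2 called 10 members (17.2% of all tested genes), adding Bbip1, Bbs7, Dync2h1, Ift122 and Ift74. The same 5 were called in edgeR with DESeq2's size factors (11.1%), with no count filter (11%) and with a mean count of at least 50 (14%). Limma-voom (9.85%) and counts thinned to the smallest library (10.3%) each called 4, without Lztfl1, and an offset for effective length (9.71%) called 3, without Lztfl1 and Ift20. On log2(TPM + 1) and log2(TPM + 0.1) limma called 0 members, against 4.3% and 5.53% of all tested genes. In each, 11 of the 34 members had an unadjusted p under 0.05, against 4893 and 4901 of the 17110 tested genes.

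**Figure D2:**
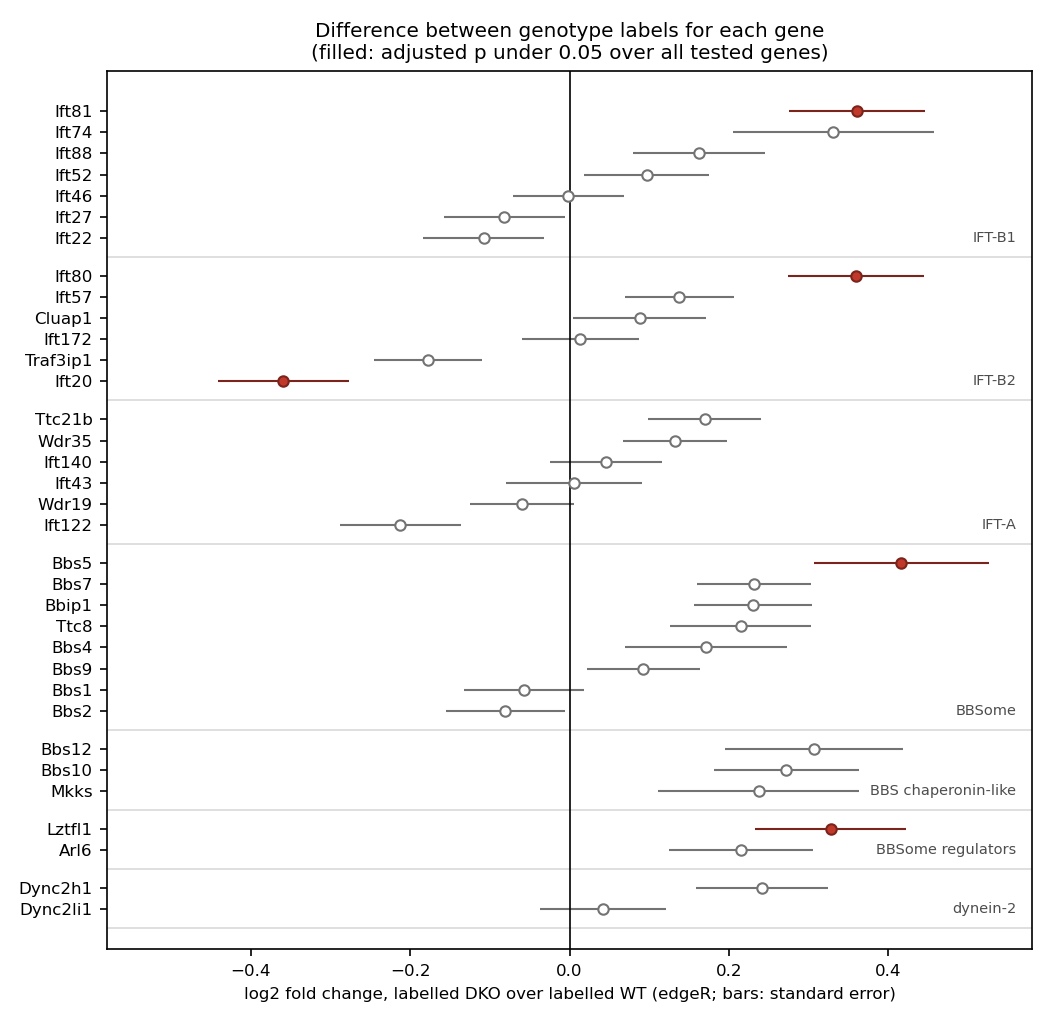
log2 fold change of each gene, libraries labelled DKO over libraries labelled WT, with its standard error (edgeR, n = 3 each), grouped by complex; filled points were called at an adjusted p under 0.05. Ift20 stands alone on the left among the called genes at -0.36, and Ift81, Ift80, Bbs5 and Lztfl1 lie between 0.33 and 0.42.

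IFT-B1, the core of the anterograde train, had 1 of 7 members called. Ift81, which with Ift74 forms a tubulin-binding module, had 169.9, 146 and 144.5 CPM in libraries labelled DKO and 128, 111 and 120.3 CPM in those labelled WT. The groups did not overlap, and edgeR gave 0.36 on the log2 scale (SE 0.0849, adjusted p = 0.0333). Its partner Ift74 had 266, 226 and 179.9 CPM against 190.4, 158 and 186 CPM. DKO replicate 3 fell within the WT range, the log2 fold change was 0.33 (SE 0.126), and the gene was not called (edgeR adjusted p = 0.0993). Ift88, the subunit whose loss classically abolishes cilia, had 101, 90.1 and 91.9 CPM against 93.0, 78.3 and 81.7 CPM. These groups overlapped (log2 fold change 0.16, SE 0.0829).

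The 2 Rab-like small GTPases of IFT-B1 had fitted values on the other side of 0 and were not called. Ift22, at 219.6 TPM the most abundant IFT-B1 transcript, had 85.0, 92.9 and 100.2 CPM in libraries labelled DKO and 98.4, 98.7 and 103 CPM in those labelled WT (log2 fold change -0.11, SE 0.0759). Ift27, which also links the train to the BBSome, had 23.5, 25.5 and 24.6 CPM against 26.8, 25.2 and 25.8 CPM (-0.082 on the log2 scale, SE 0.0761). Both pairs of groups overlapped. Ift46, a cargo-binding subunit and the least abundant of the subcomplex at 34.5 TPM, had 70.3, 74.4 and 71.8 CPM against 69.1, 71.4 and 76.3 CPM, with a log2 fold change of -0.0016 (SE 0.0697). Ift52, a scaffold subunit, stood at 0.097 (SE 0.0786).

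IFT-B2, the outer part of the train that meets kinesin-2 and the membrane, held the only members called in opposite directions within 1 complex. Ift20, a small subunit that also sits at the Golgi and sorts membrane proteins toward the flagellum, had 19.6, 19.5 and 21.7 CPM in libraries labelled DKO against 25.5, 27.4 and 25.1 CPM. Every library labelled DKO was below every library labelled WT, and edgeR gave -0.36 on the log2 scale (SE 0.0824, adjusted p = 0.0317). In TPM the groups did not overlap either, at 56.5, 52.3 and 61.2 against 67.4, 76.0 and 67.6. Ift20 has the shortest transcript of all members, 802 bases. With an offset for the effective lengths of each library its log2 fold change was -0.27 and it was no longer called.

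Ift80, mutated in a human skeletal ciliopathy, had 147, 138 and 121 CPM in libraries labelled DKO and 109.7, 98.1 and 109 CPM in those labelled WT. All libraries labelled DKO were higher (0.36 on the log2 scale with SE 0.0856, edgeR adjusted p = 0.0340). Traf3ip1 (IFT54), which binds microtubules, had 91.9, 99.2 and 94.1 CPM against 111, 104 and 107 CPM. Its groups did not overlap, but the log2 fold change of -0.18 (SE 0.0679) did not pass the test (edgeR adjusted p = 0.1003). Ift172, the largest IFT-B2 subunit and its most abundant at 149.7 TPM, had 497, 535 and 551 CPM against 554, 507 and 507 CPM. Those ranges almost coincided (0.014 on the log2 scale, SE 0.0737). Ift57, the least abundant at 39.9 TPM, had 67.3, 63.3 and 64.1 CPM against 58.5, 57.1 and 61.4 CPM (log2 fold change 0.14, SE 0.0684), and Cluap1 (IFT38), which pairs with Ift57 in the train, stood at 0.088 (SE 0.0832). Neither was called.

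IFT-A, which serves return transport and the entry of membrane proteins, had 0 of 6 members called by edgeR, with 2 at an unadjusted p under 0.05. DESeq2 called 1 of the 6, Ift122. Ift43, a small peripheral subunit with the highest level of all members, had 87.9, 91.0 and 106 CPM in libraries labelled DKO and 98.1, 88.7 and 97.3 CPM in those labelled WT. Ift140, a core subunit, had 641, 691 and 684 CPM against 681, 634 and 639 CPM. The groups overlapped for both genes, in part for Ift140, where 2 libraries labelled DKO were above all of those labelled WT. The genes had log2 fold changes of 0.0057 (SE 0.0849) and 0.046 (SE 0.0701).

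Wdr19 (IFT144), a core subunit and the least abundant of IFT-A, had 53.4, 55.0 and 53.6 CPM against 55.2, 56.4 and 57.2 CPM. The nearest libraries of the groups stood at 55.0 and 55.2 CPM, and edgeR gave -0.059 on the log2 scale (SE 0.0653). Ift122, the remaining core subunit, had 258, 303 and 290 CPM against 334, 329 and 322 CPM. Every library labelled DKO was below those labelled WT, yet the value of -0.21 on the log2 scale (SE 0.0762) was not called (edgeR adjusted p = 0.0845). The peripheral subunits Wdr35 (IFT121) and Ttc21b (IFT139) stood at 0.13 (SE 0.0656) and 0.17 (SE 0.0706), also without overlap and without a call.

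The BBSome had 1 of 8 subunits called. Bbs5, a subunit that binds phosphoinositides in the membrane, had 74.3, 64.3 and 58.9 CPM in libraries labelled DKO and 56.6, 43.2 and 48.2 CPM in those labelled WT. All libraries labelled DKO were higher, and the log2 fold change of 0.42 (SE 0.110) was the highest of the 34 members (edgeR adjusted p = 0.0392). Bbs5 was also the most abundant subunit, at 73.1 TPM. Bbs7, a propeller subunit, and Bbip1 (BBIP10), the smallest subunit, also had groups without overlap, with log2 fold changes of 0.23 (SE 0.0718) and 0.23 (SE 0.0737), but neither was called (edgeR adjusted p = 0.0571 and 0.0619).

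The subunits studied most in mouse models were not called. Bbs1, mutated most often in Bardet-Biedl syndrome, had 39.1, 39.1 and 43.9 CPM in libraries labelled DKO against 43.3, 42.8 and 41.1 CPM. Bbs2 had 31.1, 30.6 and 34.2 CPM against 34.3, 33.5 and 33.7 CPM. Bbs4, which helps to bring the complex to the centriolar satellites, had 26.2, 21.4 and 24.6 CPM against 20.1, 20.2 and 23.8 CPM. The groups overlapped for each of the 3, with log2 fold changes of -0.058 (SE 0.0751), -0.081 (SE 0.0744) and 0.17 (SE 0.101). Ttc8 (BBS8), the least abundant subunit at 8.95 TPM, had 13.3, 13.95 and 12.4 CPM against 11.4, 11.4 and 11.3 CPM without overlap (log2 fold change 0.21, SE 0.0884). Bbs9, another propeller subunit, stood at 0.093 (SE 0.0713). Bbs2 is the only member within 10 Mb of a targeted gene, 7.49 Mb from Abcc12 on chromosome 8.

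Mkks, Bbs10 and Bbs12, chaperonin-like proteins that assemble the BBSome core together with the CCT chaperonin, were the least abundant group. Bbs10 had 16.9, 17.9 and 17.1 CPM in libraries labelled DKO against 14.4, 13.0 and 15.5 CPM. Mkks had 8.48, 6.82 and 6.44 CPM against 6.299, 5.76 and 6.33 CPM. In both, all libraries labelled DKO were higher in CPM, and the same held for Bbs12. For Mkks the nearest libraries stood at 6.44 and 6.33 CPM, with as few as 166 counts in a library. Its groups overlapped in TPM, at 4.3, 3.41 and 3.43 against 3.23, 3.24 and 3.42. The log2 fold changes of Bbs10, Mkks and Bbs12 were 0.27 (SE 0.0911), 0.24 (SE 0.126) and 0.31 (SE 0.112). None of the 3 was called by edgeR or DESeq2, while 2 of them had an unadjusted p under 0.05.

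Of the BBSome regulators, Lztfl1, which limits the entry of the complex into the cilium, had 166, 146 and 132 CPM in libraries labelled DKO and 118, 108 and 128 CPM in those labelled WT. The groups did not overlap, and edgeR gave 0.33 on the log2 scale (SE 0.0946, adjusted p = 0.0491). It was the called member nearest to the threshold and the only one of the 5 whose call was lost without WT replicate 1. Arl6 (BBS3), the small GTPase that recruits the BBSome to membranes, had 33.8, 28.8 and 28.8 CPM against 27.1, 24.2 and 27.4 CPM (log2 fold change 0.21, SE 0.0903), without overlap and without a call.

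The 2 dynein-2 subunits of the rule were not called by edgeR, with 1 at an unadjusted p under 0.05. Dync2h1, the motor heavy chain, had 150.3, 139.8 and 141 CPM in libraries labelled DKO against 135.5, 112 and 117.5 CPM (0.24 on the log2 scale with SE 0.0827, edgeR adjusted p = 0.0750). Dync2li1, the light intermediate chain that stabilises it, had 37.6, 34.7 and 40.5 CPM against 36.2, 35.6 and 37.8 CPM (log2 fold change 0.042, SE 0.0786). The groups overlapped for Dync2li1 but not for Dync2h1.

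**Figure D3:**
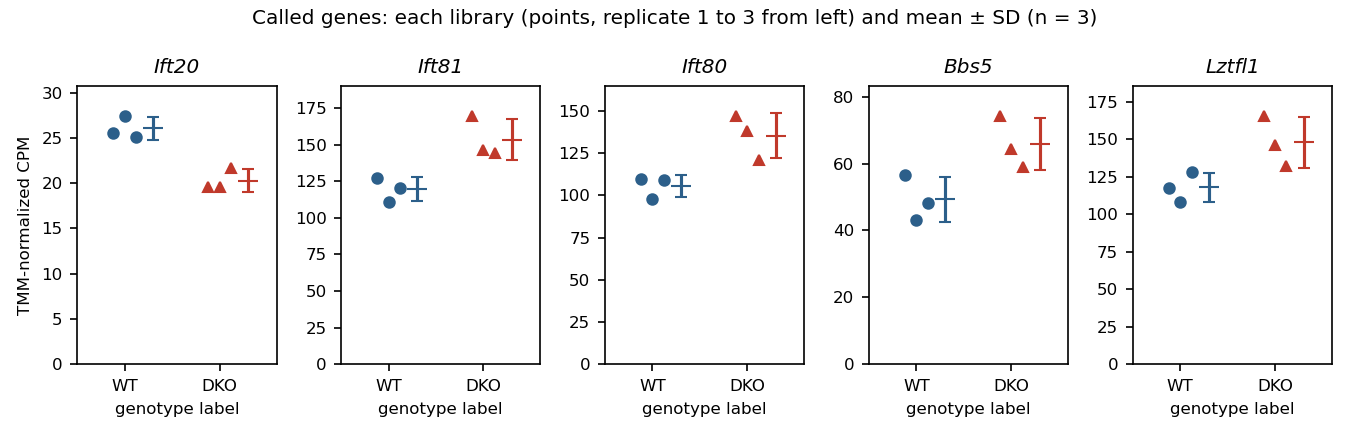
TMM-normalized CPM of the 5 called genes in each library, with mean and SD per genotype label (n = 3 each); each panel has its own axis from 0. Ift20 has 19.5 to 21.7 CPM in libraries labelled DKO against 25.1 to 27.4 CPM, and the other panels show the libraries labelled DKO above all of those labelled WT.

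Summed over a complex, TPM did not overlap between the labels for the BBS groups and overlapped for the IFT groups and dynein-2, but the IFT values depended on the unit. BBSome subunits summed to 283, 247 and 266 TPM in libraries labelled DKO and 236, 229.5 and 234 TPM in those labelled WT (two-sided exact permutation p = 0.1, the minimum here). The largest part of that sum was Bbs5, at 94.4, 78.3 and 76.6 against 70.2, 57.7 and 61.6 TPM. Taken singly, Bbs7, Bbip1 and Ttc8 also did not overlap in TPM, while Bbs1, Bbs2, Bbs4 and Bbs9 overlapped. A sum without Bbs5 was not tested. The chaperonin-like genes summed to 17.7 ± 0.551 against 15.2 ± 0.837 TPM and the regulators to 103 ± 10.1 against 87.5 ± 5.09 TPM (SD, n = 3 each), both without overlap (exact permutation p = 0.1). IFT-B1 summed to 640.0 ± 23.6 against 606 ± 10.8 TPM (exact permutation p = 0.2, n = 3 each). For IFT-B2 the sums were 407 ± 11.6 and 419.5 ± 7.63 TPM, and for IFT-A 693 ± 47.4 and 704 ± 3.54 TPM (SD, n = 3 each; exact permutation p = 0.3 and 0.9). The dynein-2 pair summed to 66.7 ± 6.28 and 64.2 ± 1.18 TPM (SD, n = 3 each; exact permutation p = 0.6). Over all members the sums were 2193 ± 81.4 and 2129 ± 13.8 TPM (n = 3 each; exact permutation p = 0.4). In sums of CPM, which are not scaled for length, the log2 ratio was 0.18 for IFT-B1 (0.080 in TPM), as large as that of the BBSome (0.18 in CPM, 0.19 in TPM), and it changed sign for IFT-B2 (0.042 against -0.045) and IFT-A (0.011 against -0.023). Whether the BBS groups differ from the IFT groups was not tested.

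The fold changes of the members ran with the base composition of their transcripts. Across the 34 genes, which share all 6 libraries and are not replicates, the log2 fold change correlated with transcript GC content at Spearman's rho -0.88 (Pearson's r -0.81), and at rho -0.58 across 16840 tested genes with a GC value. In the 17 members with 37.1% to 46.3% GC, 17 of 17 had a log2 fold change above 0, with a median of 0.24. All 4764 tested genes in that GC range had a median of 0.20, and 81.4% of them were above 0. Of the 17 members with 46.6% to 55.1% GC, 8 were above 0 and the median was -0.0016, against -0.024 and 45.5% over 7793 genes. Ift81, Ift80, Bbs5 and Lztfl1 were all in the first class, and Ift20, at 49.1% GC, in the other. With transcript length rho was 0.034 and r 0.19 among the members, against 0.21 and 0.22 across all tested genes.

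**Figure D4:**
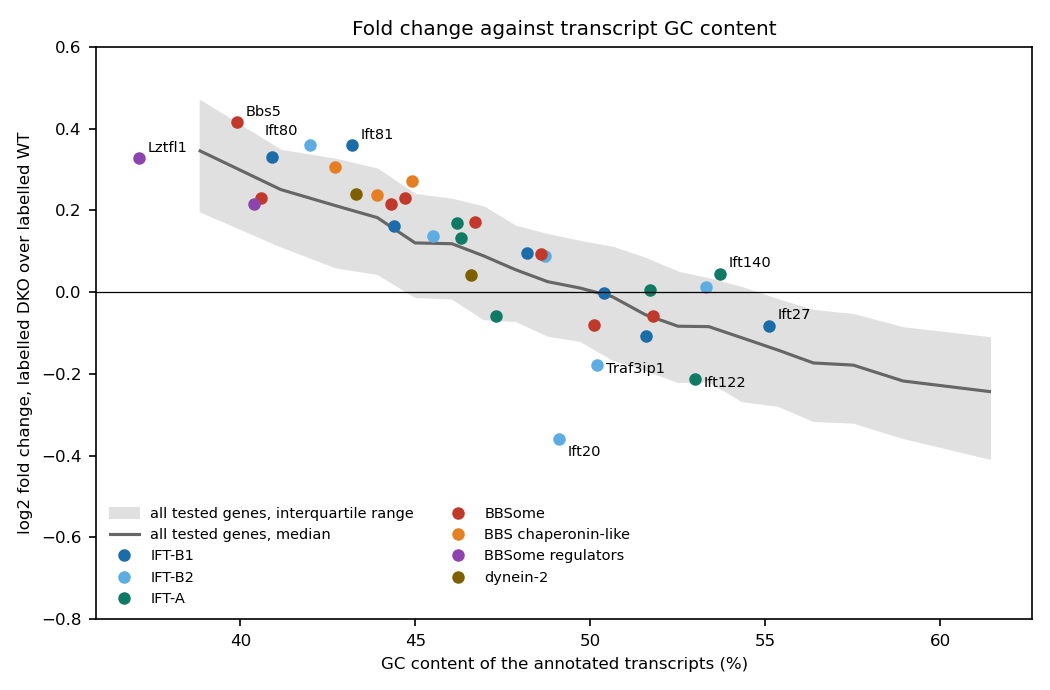
log2 fold change (labelled DKO over labelled WT) against the GC content of the annotated transcripts for the 34 genes, coloured by complex; the line and band give the median and interquartile range of all tested genes in 20 GC classes of equal size. Most points follow the falling line. Ift20 lies below the band at -0.36 and Traf3ip1 at -0.18, while others, among them Ift81 and Ift80 (both at 0.36), lie above it.

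After trends of each library with GC content and length were taken out, 0 members were called by edgeR, against 3.42% of all tested genes. An unadjusted p under 0.05 was found for 7 of the 34 members and for 3846 of the 17110 tested genes. The median log2 fold change was then 0.034 over the members and -0.019 over all tested genes. The smallest p belonged to Ift20, at -0.31 (SE 0.0767; edgeR adjusted p = 0.0537), then Traf3ip1 at -0.21 and Ift122 at -0.18. Ift81, Bbs5 and Ift80 stood at 0.16, 0.17 and 0.13, and Lztfl1 at -0.035. Fragment length moved with some members as well. The order of the 6 libraries by CPM was the same as their order by fragment length for Bbs5, Ift81 and Ift80, which is 3 of 34 members (8.82%) and 5.07% of all tested genes. With fragment length as a covariate edgeR called 0 members (0.00584% of all tested genes). Fragment length did not overlap between the groups, so this fit cannot separate it from the genotype label. In that fit 0 members had an unadjusted p under 0.05, against 542 of the 17110 tested genes. The members' median was 0.048, with Bbs5 at -0.055 (SE 0.115, against 0.110 without the covariate) and Ift20 at -0.20 (SE 0.133, against 0.0824).

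**Figure D5:**
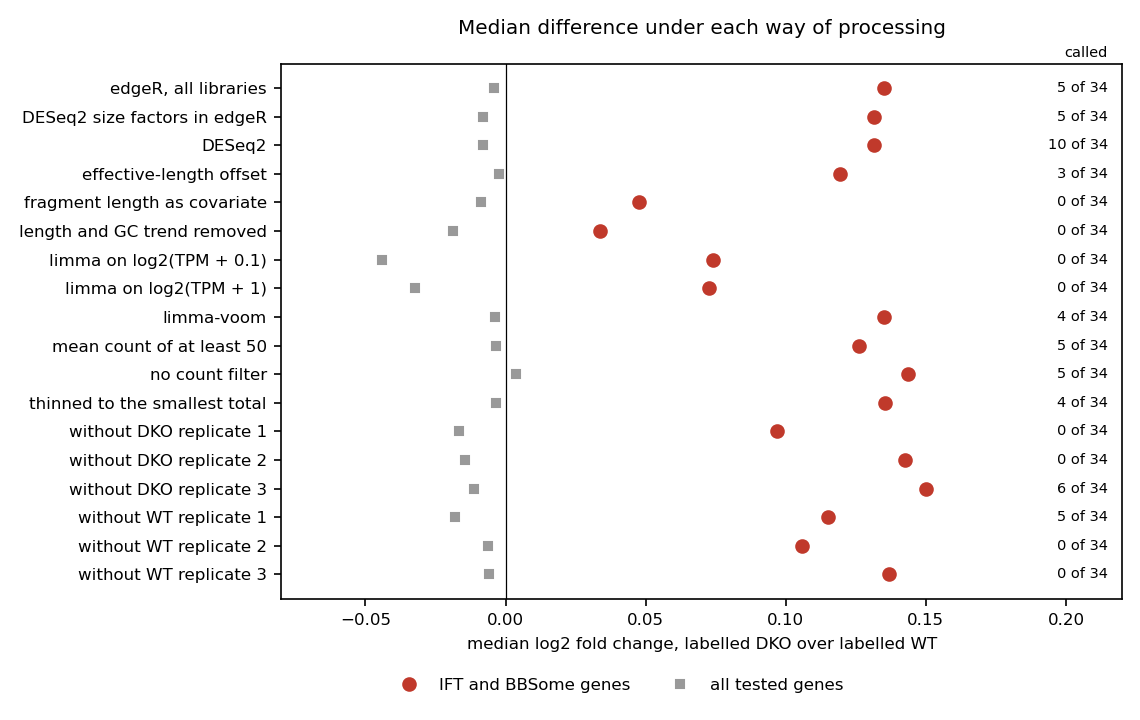
Median log2 fold change (labelled DKO over labelled WT) of the 34 genes (circles) and of all tested genes (squares) under each way of processing, with the number of the 34 called at the right. The median of the 34 stays above that of all tested genes in each row, between 0.034 and 0.15, and the number called runs from 0 to 10.

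Cell type markers differed between the same libraries, and in whole testis fewer cells of a type and less RNA per cell cannot be told apart. Of 9 spermatocyte markers 2 were called, both higher, where 10.8% of all tested genes were called. Of the 9, 8 had a log2 fold change above 0 and 1 below it. An unadjusted p under 0.05 was found for 6 of them, against 31.7% of all tested genes. The summed level of the 9 was 1807 to 2264 TPM in libraries labelled DKO against 1630 to 1719 TPM. Most of that sum was Mael, at 1100 to 1339 against 1019 to 1073 TPM and not called. Sertoli markers, from the supporting cells of the tubule, summed to 779.7 to 951 TPM against 1144 to 1357 TPM, with 4 of 10 called, all lower. Most of that sum was Defb19, at 492.1 to 627 against 815 to 984 TPM. Of the 10, 8 had a log2 fold change below 0 and 2 above it. Sox9, Wt1, Gata4, Amhr2, Fshr and Inhbb were not called. Leydig markers, from the steroid-producing cells, summed to 845 to 1502 TPM against 1482 to 3105 TPM, with 3 of 7 called, all lower. Most of that sum was Insl3, at 582 to 1193 against 1215 to 2576 TPM, with fractional counts in all 6 libraries. Of the 7, 6 had a log2 fold change below 0 and 1, Hsd3b1, above it. Round spermatid markers, from the stage at which flagella begin to grow, summed to 1834 to 2032 TPM against 1751 to 1981 TPM, with 0 of 8 called by edgeR and 0 at an unadjusted p under 0.05. Elongating spermatid markers had 3 of 10 called, Akap4 higher and Prm3 and Gapdhs lower. Multiciliated markers summed to 69.9 to 82.4 against 86.7 to 91.9 TPM, with 0 of 3 tested called by edgeR and 1 at an unadjusted p under 0.05. Almost all of that sum was Foxj1, also a listed ciliary transcription factor, so the difference cannot be assigned to that epithelium. The 5 duct markers summed to 1.21 to 2.11 TPM over all libraries. Spermatogonia and macrophage markers had overlapping sums and 0 called by edgeR, with 0 of 7 and 2 of 7 at an unadjusted p under 0.05. Peritubular myoid markers summed to 64.3 to 75.2 against 75.4 to 111 TPM, without overlap. The largest part of that sum was Acta2, at 30.4 to 37.6 against 34.4 to 52.3 TPM and not called. Of these 5 markers 1 was called, Tagln, lower, and 3 had an unadjusted p under 0.05. Over all tested genes 31.7% had an unadjusted p under 0.05. The part of these differences in the values of the IFT and BBSome genes was not tested.

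Beyond the members, 77 other genes of the pathway were found in the files out of 79 listed, and 17 of them were called, 9 higher and 8 lower (22.1%, against 10.8% of all tested genes). Of 12 further genes of dynein-2, 6 were called, all lower and all coding for light chains shared with other dyneins, and the median log2 fold change of the 12 was -0.26. Dynll2 had 380.0, 513 and 396 CPM in libraries labelled DKO against 603.5, 591 and 592 CPM. All libraries labelled DKO were lower, and edgeR gave -0.47 on the log2 scale (SE 0.104, adjusted p = 0.0291). Dynlrb1 and Dynlrb2 stood at -0.53 and -0.34. Dynlt1b, Dynlt1c and Dynlt1f stood at -0.40, -0.52 and -0.32, but these near-identical copies had fractional counts in all 6 libraries and cannot be separated with certainty.

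On the higher side, Spef2, a central-pair protein that binds Ift20 in sperm, had 57.5, 53.0 and 44.6 CPM in libraries labelled DKO against 41.8, 35.7 and 38.9 CPM. No library labelled WT reached the lowest labelled DKO, and edgeR gave 0.41 on the log2 scale (SE 0.0995, adjusted p = 0.0343). Of the 8 CCT chaperonin subunits 2 were called, Tcp1 at 0.29 and Cct6a at 0.28, Tcp1 with fractional counts in all 6 libraries. Among 5 further IFT-B genes 1 was called, Ttc30a1 (IFT70) at 0.32, whose counts are shared with its copies in the same way. Kinesin-2 had 1 of 5 called, the ciliary kinases 0 of 5 by edgeR (2 at an unadjusted p under 0.05), the ciliary small GTPases and adaptors 1 of 13, the assembly and cargo factors 5 of 21, and the ciliary transcription factors 1 of 8, Rfx1, which was lower at -0.32. After removal of the length and GC trends 3 of the 77 remained past the threshold, Dynll2 and Dynlt1b lower and Cct6a higher. That is near the 3.42% of all tested genes called in that fit. By edgeR there were 0 of the 77 without DKO replicate 1, WT replicate 2 or WT replicate 3, and 7 without DKO replicate 2. Of all tested genes 0.0643%, 0.0747%, 0.0402% and 3.83% were called in these fits, in that order. Without DKO replicate 1, WT replicate 2 or WT replicate 3, 29, 33 and 31 of the 77 had an unadjusted p under 0.05. Over all tested genes 3571, 3793 and 4326 did. An X-box stood in 11 of the 65 promoters found for these other genes (16.9%), and a half-site in 22 (33.8%).

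Exons of 5 members overlap those of a gene on the opposite strand (Arl6, Bbip1, Bbs12, Bbs4 and Mkks), and strand handling is not given in the sources used here, so part of their counts may belong to the neighbour. Bbip1 was the 1 member with fractional counts. In 10 members the files sum over several RefSeq transcripts. The length weighted by their estimated abundance varied by at most 53.8 bases between libraries, in Mkks. There it was 3065 ± 18.7 bases in libraries labelled DKO and 3048 ± 20.2 in those labelled WT (SD, n = 3 each). A shift in the mix of transcripts was not tested, and this measure cannot show one between transcripts of similar length.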

How the data were processed

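RNA was measured in 6 testis libraries, 3 labelled DKO and 3 labelled WT by the genotype label. The files are RSEM gene tables, 1 per library without pooling, per the file headers. The submitters' processing notes name STAR 2.7.0f, RSEM 1.2.31, DESeq2 1.12.3 and the mm10 build, with no order; strand handling is not given in the sources used here. Expected counts, as deposited, are estimates (93.2% whole); they were rounded to whole numbers. The TPM deposited by the authors is scaled per effective length and library size. The FPKM deposited by the authors was not used. The members and gene lists were chosen with earlier results of these data known.

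Genes were kept by filterByExpr of edgeR 4.0.16 (17110 genes), scaled by TMM and compared by its quasi-likelihood test on genotype alone. P-values were Benjamini-Hochberg adjusted over all tested genes, with calls under 0.05. SE is the absolute log2 fold change over the square root of F. CPM is TMM-normalized. Mean fragment length was read from genes above 3000 bases, as the median gap between length and effective length, plus 1. Transcript GC came from GENCODE M21 transcripts with the same RefSeq accessions (97.8% of genes); positions came from RefSeq GRCm38.p6. Alternatives used DESeq2 1.42.0, limma 3.58.1 (voom, log2(TPM + 1), log2(TPM + 0.1)), mgcv 1.9.3 trend offsets, effective-length offsets, thinning, other filters and scaling, and leaving out each library. The fit was tested on simulated counts with 200 changed genes, each changed by more than any member here. The simulation held no GC or fragment-length trend, so it does not bear on differences as small as those of the members. Per-library sums were compared by exact permutation (SciPy 1.17.1). Full values are given for called members, the most and least abundant member of each complex and Ift88, Ift20, Ift140, Ift172, Ift27, Bbs1, Bbs2, Bbs4, Mkks and Dync2h1, and for partners up to the 10 called with the smallest p.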

Additional observations from a re-analysis of the deposited data

How the results depend on the processing

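No paired analysis was possible because the labels give the groups no shared replicate numbers (the numbers 1 to 3 follow the order of deposition). Across the 6 fits that each left out 1 library, calls ranged from 7 to 3029 over all genes, 0 to 6 over the members and 0 to 25 over the other pathway genes, and the members' median log2 fold change from 0.0969 to 0.15. DESeq2 called 2943, 10 and 27 genes (all, members, others; 1856, 5 and 17 in edgeR). An adjusted p under 0.01 left 7, 0 and 0. Limma called 735, 0 and 5 on log2(TPM + 1) and 947, 0 and 5 on log2(TPM + 0.1). In each, 11 members had an unadjusted p under 0.05, against 4893 and 4901 of all tested genes. The members' medians were 0.0726 and 0.0739. In both, the share of all calls that were higher was lower than in edgeR (279 and 370 higher against 984 of 1856). The effective-length offset called 3 members, Bbs5, Ift80 and Ift81. With fragment length as a covariate 1, 0 and 0 genes were called (542, 0 and 1 at an unadjusted p under 0.05) and the members' median was 0.0478; with length and GC trends removed 585, 0 and 3, and the median was 0.0337. The cause of these losses was not tested. Fitted values that changed sign with fragment length as a covariate were Arl6 -0.0779, Bbs1 0.0583, Bbs5 -0.055, Bbs9 -0.0612, Cluap1 -0.2009, Ift22 0.0818, Ift46 0.0525, Ift74 -0.2678, Ift88 -0.0892, Lztfl1 -0.0157 and Mkks -0.188. With the trends removed they were Arl6 -0.0189, Bbip1 -0.0225, Dync2li1 -0.0189, Ift27 0.0714, Ift88 -0.0007 and Lztfl1 -0.0345. Genes near 0 also changed sign: Ift140 (-0.0271 on log2(TPM + 0.1), -0.027 on log2(TPM + 1)), Ift172 (-0.0581, -0.0578, and -0.0116 with the effective-length offset), Ift43 (-0.0028 at a mean count of 50, -0.0033 thinned) and Ift46 (0.007 without a filter, 0.0049 thinned). Without 1 library, Ift172 ranged from -0.0178 to 0.0412, Ift43 from -0.0811 to 0.0453, Ift46 from -0.0488 to 0.0398 and Dync2li1 from -0.0153 to 0.0872. The log2 ratio of summed TPM, without 1 library, ranged from 0.0518 to 0.105 (IFT-B1), -0.0653 to -0.0242 (IFT-B2), -0.0807 to 0.0078 (IFT-A), 0.1389 to 0.2374 (BBSome), 0.1892 to 0.2612 (chaperonin-like), 0.1544 to 0.2871 (regulators), -0.009 to 0.1255 (dynein-2) and 0.0208 to 0.0722 (all members). With sums of CPM it was 0.1815 for IFT-B1, 0.0424 for IFT-B2, 0.0112 for IFT-A, 0.1767 for the BBSome, 0.2704 for the chaperonin-like genes, 0.308 for the regulators, 0.1967 for dynein-2 and 0.0879 for all members. Each member had at least 125 counts in every library, and with counts thinned to the smallest total 4 members were called, Lztfl1 being lost at an edgeR adjusted p of 0.0531.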
